A study of Mus musculus with 99 samples.

Results

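JARID2 binding was followed in 11 ChIP-seq libraries, which are all the libraries in the series whose antibody label is JARID2, out of 99 samples in total. The antibody label alone chose them, so no measured value entered the choice. All lines derive from ROSA26::creERT2 RING1A-/-;RING1B fl/fl mouse embryonic stem cells (ESCs), which carry a tamoxifen-inducible Cre and no RING1A whether treated or not. In the Parental line, 4-hydroxytamoxifen (OHT, 0.5 µM) deletes the remaining Ring1b gene and leaves the cells without either PRC1 ubiquitin ligase. The RING1B WT and RING1B I53S lines carry, in addition, a FLAG-HA-tagged RING1B transgene under the constitutive pCAG promoter, either wild type or with the I53S substitution that the study describes as catalytically dead. The 2 transgenic lines are stable clones, so the transgene and the clone cannot be told apart. Vehicle (ethanol, -OHT) was profiled once in each line, 48 h of OHT once in each line, and 72 h once in Parental cells and in 2 libraries each for RING1B WT and RING1B I53S. The treatment description gives 72 h for every sample, whereas the sample titles mark the 48 h libraries, and the titles were followed. At 72 h, the titles of 1 RING1B WT and 1 RING1B I53S library carry OHT in place of the hours, and these 2, listed apart from the other 9, are called replicate 1. They also had the lowest scores of all 11 at a ribosomal RNA-like locus on chromosome 17, 17948 and 7987, against 85520 and 45967 in replicate 2, and results are given below with and without them.

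JARID2 is a DNA- and nucleosome-binding accessory subunit of Polycomb repressive complex 2 (PRC2), the methyltransferase that places H3K27me3. Together with AEBP2 it defines the PRC2.2 form, while MTF2 or its relatives PHF1 and PHF19, with EPOP or PALI, define PRC2.1. JARID2 and AEBP2 can bind H2AK119ub1, the mark placed by the RING1A or RING1B subunit of PRC1, whereas MTF2 binds unmethylated CpG-rich DNA. In ESCs these complexes occupy the CpG islands of silent developmental regulators such as the Hox genes.

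The measurements are lists of peaks, each with its position and a score, which is the -log10 of the MACS2 p-value against an input library and was never below 10 in these lists. Reads are not part of a list, which leaves library depth unknown, and a score rises with depth as well as with enrichment. The absence of a peak therefore says that none was called at that depth. As target loci served the 3941 RING1B peaks called at 72 h of OHT in the RING1B WT line, with a median length of 1267 bp. A target locus was counted as occupied when at least 1 bp lay in a JARID2 peak. The 6 libraries with active RING1B are the 3 vehicle libraries and the 3 RING1B WT libraries with OHT, and the 5 without are the Parental and RING1B I53S libraries with OHT.

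6 sequences stand for both ends of the range described here, 3 from loci that held a JARID2 peak in all 11 libraries and 3 from loci that lost it in all 5 libraries without active RING1B and in no other. All are on the plus strand of GRCm38.p6, outside exons. Each is the 250-base window with the most CG dinucleotides in the stretch common to the peaks at that locus, so its CG count is set by the choice of window and is not compared. Capitals mark CG dinucleotides, the bases that carry CpG methylation and that CXXC and MTF2-type domains recognise when unmethylated. Neurod2 (a neuronal bHLH factor; intron, chr11:98328657-98328906), Hoxb6 (a posterior homeobox factor; intron, chr11:96298752-96299001) and Uncx (a homeobox factor of somites and neurons; intron, chr5:139546336-139546585) kept the peak. Vax2os (antisense to the eye homeobox gene Vax2; intron, chr6:83711806-83712055), Esrp1 (an epithelial splicing regulator; intergenic, upstream of the gene, chr4:11388005-11388254) and Tbx15 (a T-box factor of skeleton and muscle; intron, chr3:99253506-99253755) lost it.
Neurod2: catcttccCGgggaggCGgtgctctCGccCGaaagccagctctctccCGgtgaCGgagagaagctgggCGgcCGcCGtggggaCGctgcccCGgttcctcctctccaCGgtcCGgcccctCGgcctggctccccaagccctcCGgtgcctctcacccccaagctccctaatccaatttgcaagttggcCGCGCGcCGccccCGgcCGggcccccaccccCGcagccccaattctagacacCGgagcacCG
Hoxb6: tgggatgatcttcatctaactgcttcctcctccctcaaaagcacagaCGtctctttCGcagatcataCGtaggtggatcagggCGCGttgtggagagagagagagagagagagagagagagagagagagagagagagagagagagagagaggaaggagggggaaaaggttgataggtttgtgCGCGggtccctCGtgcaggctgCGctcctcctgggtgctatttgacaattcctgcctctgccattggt
Uncx: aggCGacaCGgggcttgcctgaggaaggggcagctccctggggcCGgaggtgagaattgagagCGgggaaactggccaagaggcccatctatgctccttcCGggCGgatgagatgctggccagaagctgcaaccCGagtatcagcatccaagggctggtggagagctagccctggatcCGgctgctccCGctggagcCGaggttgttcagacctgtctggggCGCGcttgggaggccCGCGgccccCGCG
Vax2os: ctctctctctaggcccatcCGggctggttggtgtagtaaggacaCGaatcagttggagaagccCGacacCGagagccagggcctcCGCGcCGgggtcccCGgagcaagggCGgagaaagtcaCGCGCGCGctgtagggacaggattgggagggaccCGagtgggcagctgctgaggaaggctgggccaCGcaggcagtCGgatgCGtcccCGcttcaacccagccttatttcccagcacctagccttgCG
Esrp1: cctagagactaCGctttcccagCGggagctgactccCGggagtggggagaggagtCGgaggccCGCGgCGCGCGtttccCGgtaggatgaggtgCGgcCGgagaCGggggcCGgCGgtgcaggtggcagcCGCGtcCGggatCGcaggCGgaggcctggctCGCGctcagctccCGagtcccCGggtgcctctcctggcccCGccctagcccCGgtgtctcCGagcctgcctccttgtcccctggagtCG
Tbx15: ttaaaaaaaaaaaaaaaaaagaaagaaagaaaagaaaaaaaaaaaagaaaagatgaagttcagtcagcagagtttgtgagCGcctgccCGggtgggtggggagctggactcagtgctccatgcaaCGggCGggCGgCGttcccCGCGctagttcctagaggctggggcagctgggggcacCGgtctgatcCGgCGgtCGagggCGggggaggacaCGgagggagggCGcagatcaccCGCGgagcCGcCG

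JARID2 occupied nearly the same share of target loci in every library with active RING1B and far fewer in each library without it. In vehicle, 90.4% (95% Wilson interval 89.4 to 91.3) of target loci held a JARID2 peak in Parental cells, 88.1% (87.1 to 89.1) in RING1B WT cells and 86.9% (85.8 to 87.9) in RING1B I53S cells. RING1B WT cells with OHT held JARID2 at 86.5% at 48 h and at 87.7% and 86.6% in the 2 libraries at 72 h. No library of these 6 fell outside 86.5% to 90.4%. Parental cells with OHT stood at 63.2% (61.6 to 64.6) at 48 h and 30.6% (29.2 to 32.1) at 72 h. RING1B I53S cells stood at 25.5% (24.2 to 26.9) at 48 h, and at 24.3% (22.9 to 25.6) and 9.59% (8.71 to 10.6) in the 2 libraries at 72 h. The groups did not overlap, and the libraries without active RING1B were spread widely, with the 48 h Parental library the highest and the second RING1B I53S library at 72 h the lowest. The intervals cover counting over loci only.

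**Figure D1:**
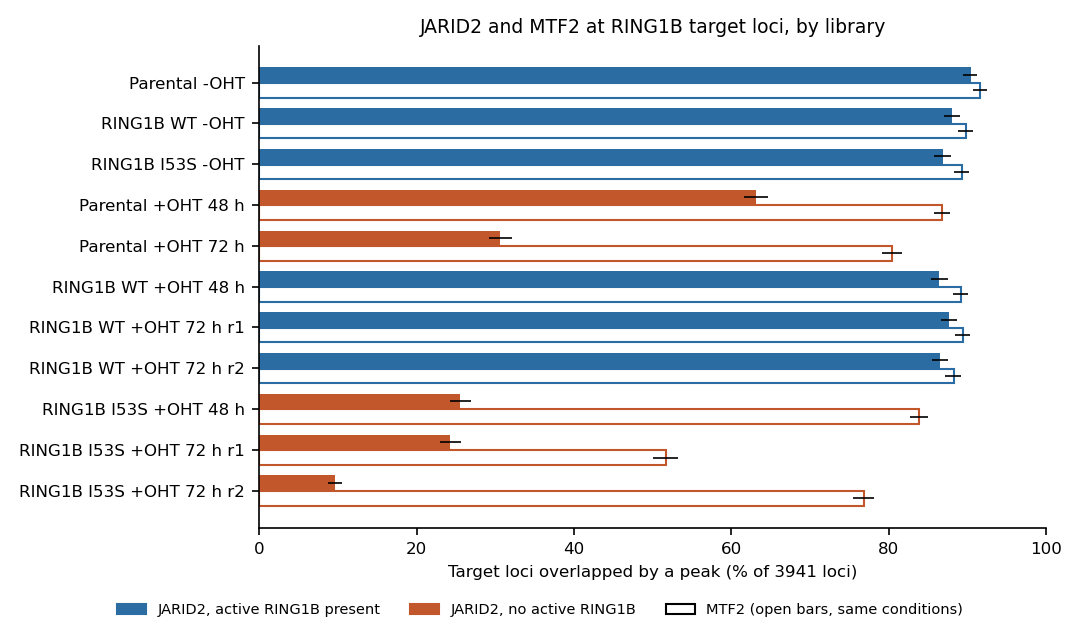
Share of the 3941 target loci with a peak (%, horizontal axis) in each of the 11 libraries (vertical axis, r1 and r2 being replicates), for JARID2 (filled bars) and MTF2 (open bars), blue with and orange without active RING1B, with 95% Wilson intervals as error bars. JARID2 lies between 86.5% and 90.4% in the 6 libraries with active RING1B and between 9.59% and 63.2% in the 5 without, where every open bar reaches beyond its filled neighbour.

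The mean share was 87.7% ± 1.49 (SD, n = 6) with active RING1B and 30.6% ± 19.8 (SD, n = 5) without, a difference of 57.1 percentage points (exact two-sided permutation test over libraries, p = 0.00433, the smallest this design allows, and 0.00649 after Benjamini-Hochberg adjustment over 3 tests). The libraries pool lines and times, and nothing in the labels says that the repeated 72 h libraries came from separate cultures, so this p, like those below, measures only the spread between these libraries. Without both 72 h libraries titled OHT the difference was 55.5 percentage points (same test, exact p = 0.0159, the smallest then possible). With each list cut to its 446 highest-scoring peaks, the number in the shortest list, the difference was 6.31 percentage points (16.8% against 10.5%), in the same direction. List length and occupied share therefore move together here, and the part of list length in the difference was not tested beyond this cut.

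The lists themselves shrank in number, width and score. Without active RING1B they held 3058 and 1404 peaks in Parental cells at 48 h and 72 h, and 1137, 1080 and 446 peaks in RING1B I53S cells. With active RING1B they held 5728 to 14778 peaks, the longest being the Parental vehicle list, which covered 32.0 Mb against 12.4 to 17.2 Mb for the other 5. Median peak scores were 28.5 to 46.0 with active RING1B and 13.8 to 22.4 without. What was left lay on target loci: 84.8% to 97.2% of the peaks without active RING1B overlapped one, against 21.3% to 55.8% with it. The peaks that remained also covered less of each occupied target locus, 38.4% to 80.5% of the length compared with 98.2% to 99.4%. The lists gained hardly any sites, since peaks absent from all 3 vehicle lists numbered 1 to 58 per OHT library and 0 of them overlapped a target locus.

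The target loci that held JARID2 at 48 h and 72 h in Parental cells were nested. Of the 1206 target loci with JARID2 at 72 h, 1197 (99.3%) also held it at 48 h, which was 48.1% of the 2489 loci occupied at 48 h. RING1B I53S lists overlapped each other in the same manner: 352 target loci were shared by the 2 libraries at 72 h, which was 36.8% of the longer list and 93.1% of the shorter. Parental cells at 72 h and RING1B I53S cells at 48 h shared 802 loci, 66.5% of the former and 79.8% of the latter. In RING1B WT cells at 72 h the 2 libraries shared 3398 loci, 98.4% and 99.6% of their lists.

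MTF2, the PRC2.1 subunit profiled in the same 11 conditions, gave the closest comparison. It occupied 88.3% to 91.7% of target loci with active RING1B, and the JARID2 share minus the MTF2 share was -1.24, -1.75 and -2.46 percentage points in vehicle and -2.77, -1.75 and -1.70 in RING1B WT cells with OHT. Without active RING1B, MTF2 stood at 86.8% and 80.5% in Parental cells at 48 h and 72 h, and at 83.9%, 51.6% and 76.8% in RING1B I53S cells at 48 h and in replicates 1 and 2 at 72 h. The same difference was -23.6 and -49.9 percentage points in Parental cells, and -58.4, -27.4 and -67.2 in RING1B I53S cells. Every one of these 5 shortfalls was larger than the largest with active RING1B. The mean difference was -1.95 ± 0.56 (SD, n = 6) with active RING1B and -45.3 ± 19.1 (SD, n = 5) without, 43.4 percentage points apart (exact two-sided permutation test, p = 0.00433, adjusted p = 0.00649). In replicate 1 of RING1B I53S at 72 h, MTF2 was far below its level in the other 4 libraries without active RING1B. JARID2 and MTF2 libraries at 72 h were matched by the style of their titles. Without both libraries titled OHT the gap was 47.8 percentage points (exact two-sided permutation test, p = 0.0159, the smallest then possible). MTF2 lists were longer than JARID2 lists in every condition. Without active RING1B they held 3091 to 9681 peaks, against 446 to 3058 for JARID2. The part of list length in the gap was not tested.

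Target loci with MTF2 and no JARID2 numbered 63 to 113 with active RING1B. Without it they numbered 943 and 1974 in Parental cells and 2311, 1115 and 2660 in RING1B I53S cells. The opposite case, JARID2 without MTF2, was met at 3 to 36 target loci in any library. JARID2 peaks thus lay almost wholly on MTF2 peaks, 91.8% to 99.0% of each list.

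Other Polycomb proteins and the PRC1 mark were profiled at 72 h. In Parental cells with OHT, RING1B peaks were left at 3.20% of target loci, against 90.2% in Parental vehicle cells, and AEBP2, the partner of JARID2 in PRC2.2, at 0.152%. SUZ12, the core subunit of all PRC2 forms, stood at 79.1%, and EPOP, a PRC2.1 subunit like MTF2, at 48.03%, against 87.5% in vehicle. In RING1B I53S cells the values were 9.01% for RING1B, 0.355% for AEBP2, 56.3% for SUZ12 and 47.3% for EPOP. H2AK119ub1, the mark placed by active RING1B, still had peaks at 60.8% of target loci in Parental cells with OHT and at 41.3% in RING1B I53S cells, against 73.6% in Parental vehicle cells and 80.1% in RING1B WT cells with OHT. From western blots and spike-in-scaled ChIP-seq signal, the study reports a full loss of this mark in RING1B I53S cells, comparable to Parental cells with OHT. The peak calls carry no spike-in scaling, so these shares do not measure how much of the mark remained. The words without active RING1B name the genotype and treatment. RING1B WT cells at 72 h held AEBP2 at 31.6% of target loci, close to the 29.8% of Parental vehicle cells. Each of these is 1 library per condition and was not tested.

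Where SUZ12 itself was called, JARID2 was often missing in the libraries without active RING1B while MTF2 was not. In Parental vehicle cells, 99.4% of 3548 SUZ12-occupied target loci held JARID2, and in RING1B WT cells at 72 h 98.3% and 97.1% of 3508 did. In Parental cells at 72 h 38.5% of 3118 such loci held JARID2 and 95.3% held MTF2. In RING1B I53S cells at 72 h, JARID2 was at 42.2% and 16.9% of 2218 SUZ12 loci in the 2 libraries and MTF2 at 83.5% and 96.5%.

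To follow individual sites, 5796 shared vehicle loci were defined as Parental vehicle JARID2 peaks that overlapped a JARID2 peak in both other vehicle lists. Their median length was 2920 bp, and 3004 of them (51.8%) overlapped a target locus. RING1B WT cells with OHT kept 86.5% of them at 48 h, and 84.3% and 87.8% at 72 h. Parental cells kept 45.4% and 20.7% at 48 h and 72 h, and RING1B I53S cells kept 15.4%, 15.3% and 6.11%. The means were 86.2% ± 1.75 (SD, n = 3) and 20.6% ± 14.8 (SD, n = 5), 65.6 percentage points apart (exact two-sided permutation test, p = 0.0357, the smallest possible with 3 against 5 libraries, and the same after adjustment). Without both 72 h libraries titled OHT the difference was 65.2 percentage points (exact p = 0.133, again the smallest possible).

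Off the target set, few loci held JARID2 without active RING1B. Parental cells at 72 h kept 37.0% of the loci on target and 3.19% of those off it. RING1B I53S cells kept 29.1%, 29.1% and 11.3% on target and 0.716%, 0.537% and 0.537% off it. RING1B WT cells kept 98.9% to 99.5% on target and 68.0% to 75.6% off it, so off-target loci kept a peak less often in each of the 8 libraries with OHT. Their median Parental vehicle score was also lower, 86.9 against 521 on target, and the part of the score was not tested.

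Retention, read as a called peak, rose with the vehicle score of a locus. No list holds a score below 10, so a weak vehicle peak had less far to fall before the call was lost. Retention apart from this limit was not tested. Divided into quartiles of the Parental vehicle score, with 1449 loci in each, the lowest quartile (scores up to 84.9) kept JARID2 at 1.31% of loci in Parental cells at 72 h and the highest (scores of 544 and above) at 63.4%. In RING1B I53S cells the highest quartile kept 55.7% at 48 h, and 52.0% and 23.1% at 72 h, with 0.345% to 0.759% of the lowest kept. The third quartile already stood at 14.7% in Parental cells at 72 h and at 0.759% to 7.25% in RING1B I53S cells. Parental cells at 48 h kept more, 59.6% of the third quartile, 96.3% of the highest and 5.11% of the lowest. In RING1B WT cells the upper 2 quartiles were kept at 99.9% to 100% and the lowest at 46.2% to 57.5%. Length ordered the loci the same way: in the longest quartile (4333 bp and above) Parental cells at 72 h kept 45.1%, and in the shortest 3.73%.

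**Figure D2:**
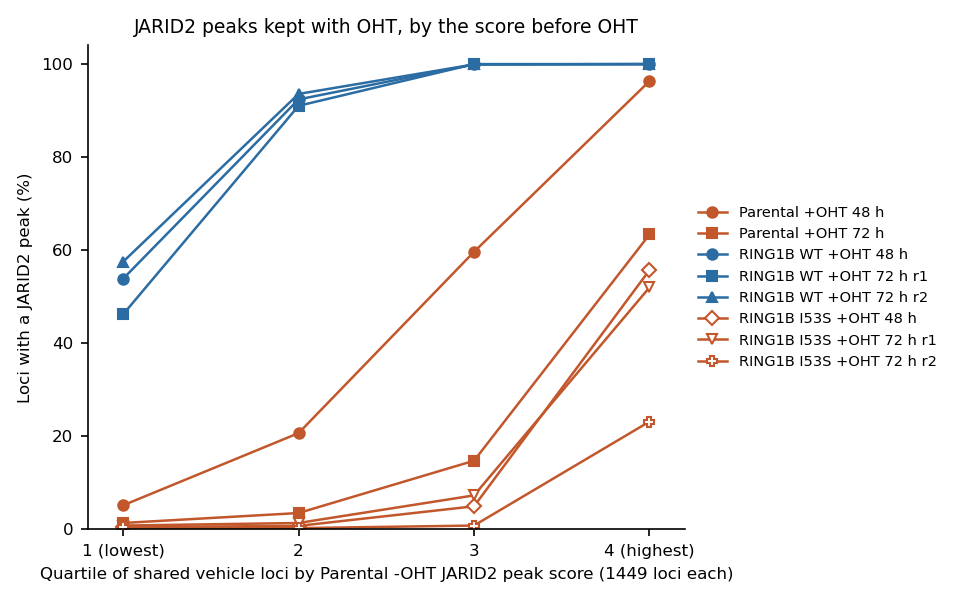
Share of shared vehicle loci that held a JARID2 peak (%, y axis) in each of the 8 libraries with OHT (blue lines RING1B WT, orange lines Parental and RING1B I53S), by quartile of the Parental vehicle score (x axis, 1449 loci each). All 3 RING1B WT lines reach 99.9% to 100% in the upper quartiles, whereas the lines of Parental cells at 72 h and of RING1B I53S cells stay low until the highest quartile, at 23.1% to 63.4%.

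Of the 5796 shared vehicle loci, 1871 (32.3%) held JARID2 in all 3 RING1B WT libraries with OHT and in none of the 5 libraries without active RING1B. At the other end 314 loci held a peak in all 11 libraries, 307 of them on target loci. Grouped by how many of the 5 libraries without active RING1B held a peak, the median length rose from 2314 bp at 0 libraries (3113 loci) to 7884 bp at 5 (315 loci), and the median Parental vehicle score from 95.2 to 1887. The share on target loci rose from 23.7% to 97.8%, and the share with an AEBP2 peak in Parental vehicle cells from 2.47% to 87.3%. CpG density changed less, with a median observed-to-expected CpG ratio of 0.435 at 0 libraries and 0.503 to 0.535 at 1 to 5. The share with EPOP in Parental vehicle cells rose from 84.2% to 97.8%. Score, length, target overlap and AEBP2 all rose with the number of libraries, and their separate parts were not tested.

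**Figure D3:**
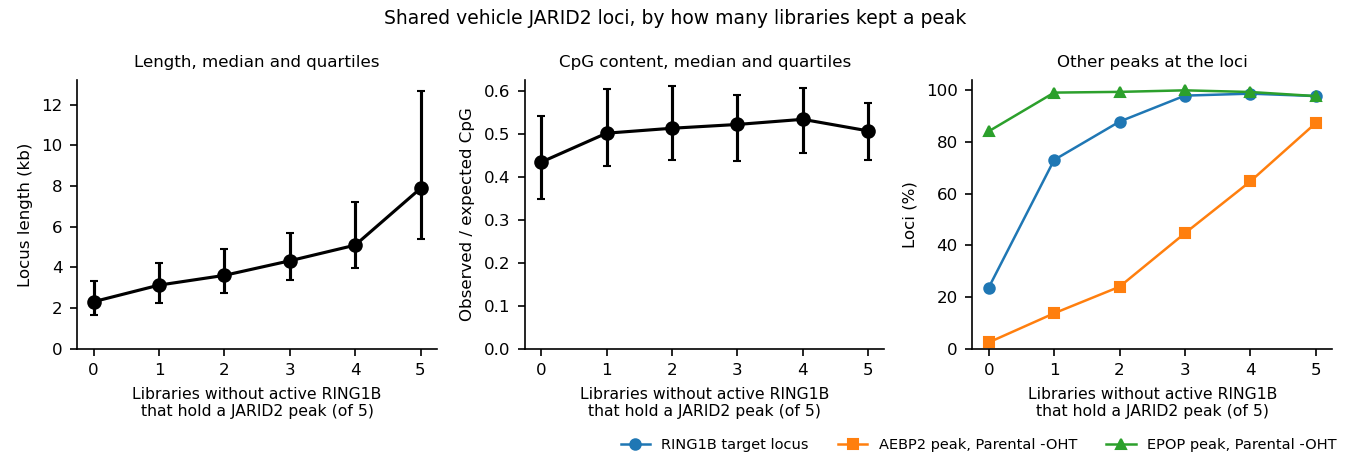
Shared vehicle loci grouped by the number of the 5 libraries without active RING1B that held a JARID2 peak (x axis in every panel), with length in kb and observed-to-expected CpG ratio (points are medians, bars the quartiles) and the share (%) overlapping target loci, AEBP2 peaks and EPOP peaks on the y axes. Length rises from 2314 bp to 7884 bp on the median and AEBP2 overlap from 2.47% to 87.3%.

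Even at the 314 loci with a peak in every library, the peaks shrank. The median score was 1891, 683 and 606 in vehicle Parental, RING1B WT and RING1B I53S cells, and 433 to 494 in RING1B WT cells with OHT. It was 87.2 and 26.7 in Parental cells at 48 h and 72 h, and 36.1, 28.3 and 14.3 in RING1B I53S cells. The medians of the 5 libraries without active RING1B all lay below those of the other 6, which does not hold at each locus: at some loci off the target set, such as Gm25352, libraries without active RING1B outscored RING1B WT replicate 1. Median coverage of the locus by peaks was 75.2% to 100% in the 6 libraries with active RING1B, and 48.8%, 29.3%, 32.8%, 25.1% and 15.7% in the 5 without.

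Among named developmental genes, the Neurod2 locus (chr11:98315770-98340995, which spans the gene) carried the highest Parental vehicle score. Its JARID2 score was 5054, 2088 and 2101 in Parental, RING1B WT and RING1B I53S vehicle cells. With OHT it was 1414, 1338 and 1454 in RING1B WT cells, 491 and 160 in Parental cells, and 269, 212 and 80.8 in RING1B I53S cells. It kept a peak in every library, at a score in the libraries without active RING1B below each of the other 6. MTF2 there scored 1361 and 652 in Parental cells with OHT. Plxnd1, a semaphorin receptor gene (chr6:115988801-115999418), went from 4815, 1419 and 1367 in vehicle to 255 and 41.7 in Parental cells and 85.0, 68.8 and 27.7 in RING1B I53S cells. Hoxb6 (chr11:96267889-96331232, a single 63344 bp Parental vehicle peak over several Hoxb genes) scored 3717 in Parental vehicle cells and 51.8 at 72 h.

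The 5 named loci that lost JARID2 in all 5 libraries without active RING1B, the highest-scoring of their kind, held MTF2 in 4 or 5 of them. At the Vax2os locus (chr6:83705475-83716356) JARID2 scored 1068, 521 and 422 in vehicle and 297, 207 and 284 in RING1B WT cells with OHT, and no peak was called in the other 5. MTF2 was called there in all 5, at 59.8 and 40.8 in Parental cells and at 91.0, 15.7 and 67.3 in RING1B I53S cells. Esrp1 (chr4:11383219-11394159) scored 1172, 345 and 317 in vehicle and 204, 218 and 247 in RING1B WT cells. Tbx15 (chr3:99246674-99262802) scored 1109, 331 and 314, and 192, 235 and 226, in the same order. Foxp2, a forkhead factor of the developing brain (chr6:14897348-14904412), and Lncpint, a long non-coding RNA gene (chr6:31214260-31223098), followed the same pattern, with 160 to 257 and 148 to 228 in RING1B WT cells with OHT. The loci were picked by this very pattern, so the scores describe it and test nothing.

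At promoters, taken as the 2.5 kb on each side of every annotated start, JARID2 marked nearly all of the listed developmental regulators. Of 57 Polycomb target genes, chiefly lineage transcription factors, 56 or 57 held a JARID2 peak in each library with active RING1B. Parental cells held it at 54 and 43 of them at 48 h and 72 h, and RING1B I53S cells at 47, 43 and 30. MTF2 was called at 51 to 57 in every library. Across all 55341 annotated gene names the counts with a JARID2 promoter peak were 5398 to 9654 with active RING1B, 3121 and 1439 in Parental cells, and 1175, 1151 and 443 in RING1B I53S cells. Most of the 57 genes thus kept some JARID2 peak, and 28 kept one in all 5 libraries without active RING1B.

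**Figure D4:**
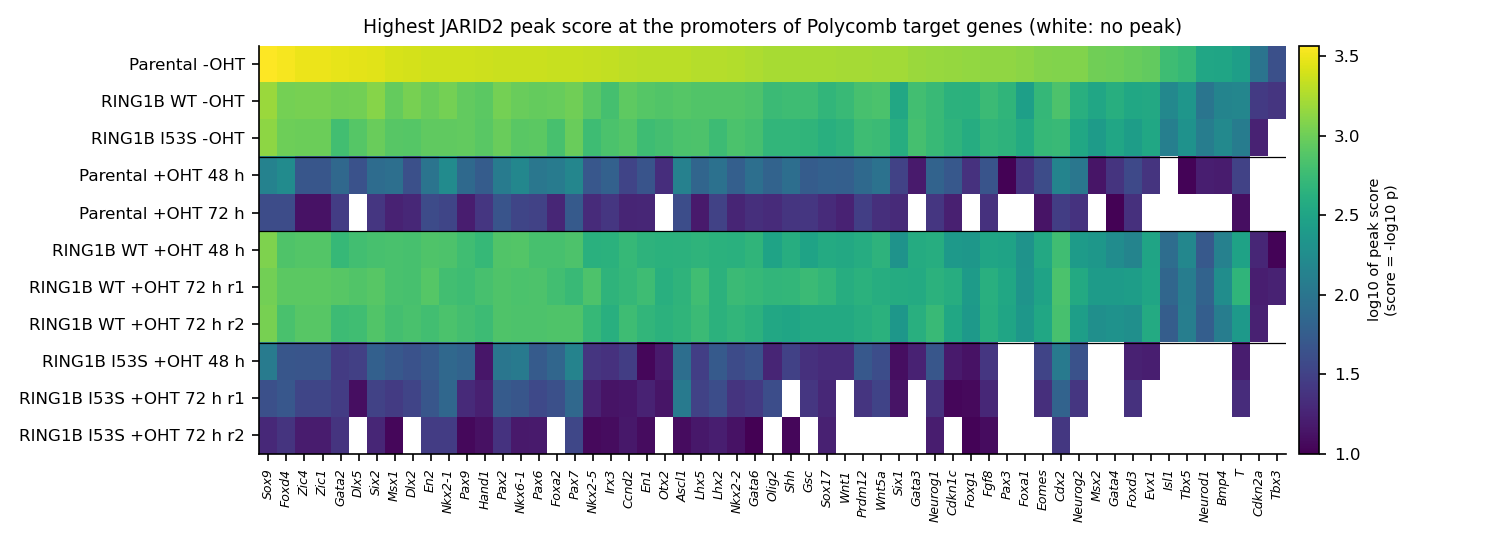
Highest JARID2 peak score at the promoter (colour, log10 scale, white where no peak was called) for 57 Polycomb target genes (horizontal axis, ordered by Parental vehicle score) in the 11 libraries (vertical axis). The 6 libraries with active RING1B are filled at 56 or 57 genes, and those without are dark or white, with 30 genes left in RING1B I53S replicate 2 at 72 h.

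Single genes of this list show the range. Sox9, a regulator of cartilage and testis, scored 3691, 1506 and 1352 in vehicle and 1037 to 1177 in RING1B WT cells with OHT, against 137 and 39.5 in Parental cells and 116, 42.5 and 19.6 in RING1B I53S cells. Pax7, a muscle and neural factor, scored 2223 in Parental vehicle cells and 53.6 in Parental cells at 72 h. Cdx2, a trophoblast and intestinal factor, scored 1216 and 29.0. All 3 kept a peak in every library. Pax3, a neural crest factor, scored 1377, 473 and 456 in vehicle and 306 to 335 in RING1B WT cells with OHT. It scored 10.4 in Parental cells at 48 h, barely past the lowest score of the lists, and had no peak in the other 4. Isl1, a LIM homeobox factor, and Cdkn2a, a cell cycle inhibitor gene, are the 2 of the 57 that held JARID2 in all 6 libraries with active RING1B and in 0 of the 5 without, Isl1 at 57.1 to 582 and Cdkn2a at 16.5 to 96.3. T, the mesoderm factor Brachyury, scored higher in RING1B WT cells with OHT (302, 475 and 247) than in RING1B WT vehicle (149).

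JARID2 was sparse over the Hox genes, which pattern the body axis, in the libraries without active RING1B. All 39 held one in each library with active RING1B, and 25 and 9 did in Parental cells at 48 h and 72 h. RING1B I53S cells held 26, 18 and 14. MTF2 was called at 33 to 39. By length, JARID2 peaks covered 54.0% to 95.1% of each of the 4 clusters in the libraries with active RING1B. They covered 3.78% to 18.7% in Parental cells at 48 h and 0% to 6.34% at 72 h, where the Hoxa cluster (chr6:52155590-52260880) and the Hoxc cluster (chr15:102921103-103036852) held no JARID2 peak. MTF2 covered 29.0% of Hoxa and 19.3% of Hoxc in that condition. RING1B I53S cells had 5.66% to 22.6% covered at 48 h and 1.43% to 9.16% at 72 h. Neighbouring Hox promoters often lie under a single broad peak, so the genes are not independent of each other.

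Among Polycomb subunit genes, JARID2 lay at a few PRC1 promoters and hardly any PRC2 promoters. Of 19 PRC1 genes, 7 held a peak in all 6 libraries with active RING1B. Cbx8, a chromodomain subunit of canonical PRC1, scored 2456, 958 and 955 in vehicle and 556 to 637 in RING1B WT cells with OHT, and kept scores of 17.5 to 49.6 in the 5 others. Pcgf5, a subunit of variant PRC1, and Bmi1, a subunit of canonical PRC1, had no peak in RING1B I53S cells at 72 h. Of 14 PRC2 genes only Phf19, an MTF2 relative, held JARID2 in all 6 libraries, at 109 to 799, and it kept a peak (14.2) only in Parental cells at 48 h among the 5. The promoters of Jarid2, Suz12, Ezh2 and Eed held no JARID2 peak in any list. Of 18 non-target control genes, 17 had none, and the exception was Esrrb, a pluripotency factor, which scored 1240 in Parental vehicle cells and 22.9 to 102 without active RING1B.

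RNA-seq of the same lines (2 libraries each at vehicle and at 72 h of OHT, 8140106 to 12743460 counted reads) gave the transcript levels behind these promoters. In these bulk samples, fewer cells of a type and less RNA per cell cannot be told apart. Levels are in CPM, the counts scaled to a common library size, and genes were called in edgeR's quasi-likelihood test when the log2 fold change reached 1.5 in either direction with a false discovery rate (FDR, Benjamini-Hochberg) below 0.05. Rnf2, which encodes RING1B, was at 198 and 257 CPM in Parental vehicle cells and 144 and 167 with OHT, and since reads from undeleted exons or a transgene may be counted, its level does not check the deletion. Jarid2 itself was at 987 and 821 CPM in Parental vehicle cells and 639 and 571 with OHT, a log2 fold change of -0.58 (SE 0.17, FDR 0.014). It was at 708 and 592 CPM, then 493 and 413, in RING1B I53S cells (log2 fold change -0.52, SE 0.17, FDR 0.0315). In RING1B WT cells it was at 638 and 626, then 610 and 510 (log2 fold change -0.17, SE 0.17, FDR 0.685). The OHT libraries of Parental and RING1B I53S cells lay below their vehicle libraries, by less than the fold threshold. Within these 2 lines Jarid2 transcript level and JARID2 occupancy both fell with OHT, but across lines they did not run parallel. RING1B WT vehicle cells, at 638 and 626 CPM, held JARID2 at 88.1% of target loci. Parental cells at 72 h of OHT, at 639 and 571 CPM, held it at 30.6%. The part of the one in the other was not tested.

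Genes with JARID2 at the promoter in all 3 vehicle lists made up most of the genes called higher. Over all 18154 genes tested, 2748 (15.1%) were higher and 333 (1.83%) lower with OHT in Parental cells, 2323 (12.8%) and 188 (1.04%) in RING1B I53S cells, and 244 (1.34%) and 7 (0.0386%) in RING1B WT cells. Of 5613 genes with JARID2 in all 3 vehicle lists, 3720 of which passed the filter on low counts, 1877 were called higher in Parental cells, 1697 in RING1B I53S cells and 172 in RING1B WT cells, and 25, 11 and 2 lower. The median log2 fold change of these 3720 was 1.67, 1.49 and 0.579 in the same order. Of 45637 genes with no JARID2 peak in any list, 11810 of which passed, 514, 340 and 42 were called higher and 269, 160 and 4 lower. The RING1B WT count rested on single libraries: without vehicle replicate 2 it was 25 genes in all and without OHT replicate 2 it was 30, against 251. Many silent genes were tested only because OHT raised their counts, so shares were also read among the 14951 genes with a mean vehicle level of at least 1 CPM, a choice made after seeing the data. There, 8.03%, 6.44% and 0.95% of all genes were called higher in Parental, RING1B I53S and RING1B WT cells. Among 2391 with JARID2 in all 3 vehicle lists the shares were 34.8%, 29.5% and 3.89%, and among 10300 with no JARID2 peak they were 1.77%, 1.10% and 0.262%.

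These genes were also split by whether the promoter kept JARID2. Among those with a peak in all 3 vehicle lists and in all 3 RING1B WT libraries with OHT, 876 lost it in all 5 libraries without active RING1B, and 35.2% of these were called higher in Parental cells and 28.5% in RING1B I53S cells. The 980 that kept it in 1 to 4 of the 5 were higher at 42.1% and 36.9%. The 72 that kept it in all 5 were higher at 51.4% and 48.6%. The shares are descriptions over genes, which are not replicates, and no test compares the classes.

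**Figure D5:**
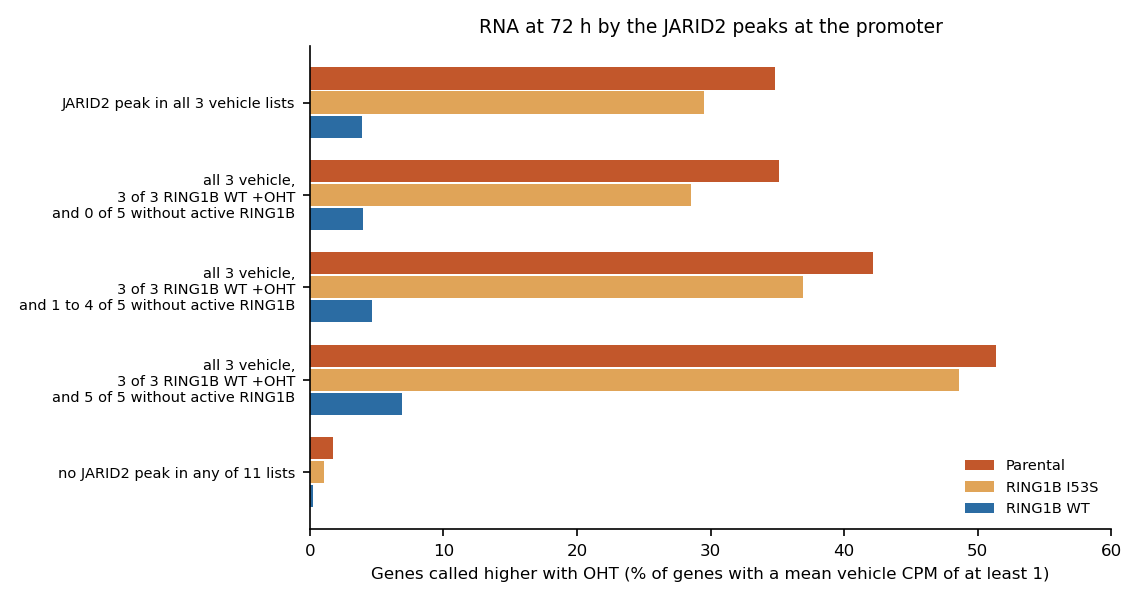
Share of genes called higher with OHT (%, horizontal axis) in the Parental, RING1B I53S and RING1B WT lines (bars), by JARID2 promoter class (vertical axis), among genes with a mean vehicle level of at least 1 CPM. Genes with no JARID2 peak stand at 1.77% or below, and those with a peak kept in all 5 libraries without active RING1B at 51.4% and 48.6% in the Parental and RING1B I53S lines.

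Of the 57 Polycomb target genes 51 passed the filter on low counts, and Parental cells had 38 called higher, RING1B I53S cells 38 higher and 1 lower, and RING1B WT cells 5 higher, beside 15.1%, 12.8% and 1.34% of all genes tested called higher. Genes silent in vehicle may have passed this filter only through their OHT libraries, so these counts describe the list and test nothing. The median log2 fold change of the list was 4.03, 3.39 and 1.29 in the same order of lines. Sox9 was at 0.326 and 0.124 CPM in Parental vehicle cells and 19.5 and 22.3 with OHT (log2 fold change 6.35, SE 0.65, FDR 6.07e-07), and its 4 values did not overlap between groups. Pax3 rose by log2 5.82 (SE 0.45) in Parental cells, 4.15 (SE 0.37) in RING1B I53S cells and 2.72 (SE 0.45, FDR 0.00348) in RING1B WT cells. Isl1 rose by log2 1.90 (SE 0.31) in Parental cells, and its value of 1.36 (SE 0.29) in RING1B I53S cells was under the fold threshold. Cdkn2a, which lost JARID2 from the same 5 libraries as Isl1, did not pass in any line (log2 fold change -0.38, SE 0.52, in Parental cells). Foxd3, a pluripotency and neural crest factor with JARID2 in all libraries but RING1B I53S replicate 2 at 72 h, was the gene called lower, by log2 -2.08 (SE 0.53) in RING1B I53S cells. The 5 genes higher in RING1B WT cells were Gata3, Pax3, Hand1, Dlx5 and Ccnd2.

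Of the 39 Hox genes 29 passed that filter, and 26 were higher in Parental cells, 25 in RING1B I53S cells and 5 in RING1B WT cells, beside the same shares of all genes, and 0 were lower. The median log2 fold change of the Hox genes was 4.93, 4.43 and 2.90 in the same order. Their RNA thus also rose on the median in RING1B WT cells, mostly without a call. The same limit of the filter applies to these counts. Hoxb13, a posterior factor that lost JARID2 in all 5 libraries without active RING1B, was at 0.652 and 2.23 CPM in Parental vehicle cells and 34.8 and 33.5 with OHT. Its log2 fold change was 4.67 (SE 0.44) there, 4.43 (SE 0.45) in RING1B I53S cells and 3.41 (SE 0.56, FDR 0.00304) in RING1B WT cells, whose promoter kept JARID2 at scores of 155 to 228. Tbx15, from the lost loci above, rose by log2 4.93 (SE 0.60), 4.04 (SE 0.54) and 2.96 (SE 0.73) in Parental, RING1B I53S and RING1B WT cells, and Foxp2 by 4.16, 3.25 and 4.10. Esrp1 rose by 2.27 (SE 0.29) in Parental cells. Plxnd1, from the kept loci, rose by 2.93 (SE 0.39) in Parental and 2.90 (SE 0.38) in RING1B I53S cells, with 1.51 (FDR 0.0628) in RING1B WT cells. Vax2os was called lower, by log2 -2.17 and -2.42 in Parental and RING1B I53S cells, and since counting ignored strand its reads cannot be told from those of Vax2. Neurod2, Uncx and Nr2e1 had too few reads to be tested.

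Some Polycomb subunit genes were called. Of all genes tested, 15.1%, 12.8% and 1.34% were called higher in Parental, RING1B I53S and RING1B WT cells, and 1.83%, 1.04% and 0.0386% lower. Among the PRC1 genes reported here, Pcgf5, Cbx8 and Phc2 were higher and Phc1 lower in Parental cells, and Pcgf5 and Cbx8 were higher in RING1B I53S cells. Pcgf5, Cbx8 and Phc2 held JARID2 at the promoter in all 3 vehicle lists, and Phc1 held no JARID2 peak in any list. Cbx8 was at 1.47 and 0.865 CPM in Parental vehicle cells and 26.2 and 31.1 with OHT (log2 fold change 4.55, SE 0.45, FDR 4.21e-07). In RING1B I53S cells Cbx8 rose by log2 2.57 (SE 0.39), and in RING1B WT cells its value was 1.58 (SE 0.44, FDR 0.0671). Of 14 PRC2 genes only Phf19 was called, higher by log2 1.75 (SE 0.41) in Parental and 2.13 (SE 0.40) in RING1B I53S cells. In RING1B WT cells 0 genes of either list were called. Of the 18 control genes 0 were called higher in any line, and Sox2 and Zfp42 were lower in Parental cells and Zfp42 in RING1B I53S cells.

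Cell type markers moved with OHT in the same lines. The summed level of 10 ESC markers was 6534 to 7768 CPM in Parental vehicle cells and 3598 to 3666 with OHT, 6156 to 7362 and 3853 in RING1B I53S cells, and 6566 to 7804 and 6188 to 6355 in RING1B WT cells. Of these 10 markers 3 were called lower in Parental cells, 2 in RING1B I53S cells and 0 in RING1B WT cells. Of all genes tested, 1.83%, 1.04% and 0.0386% were called lower. The median log2 fold change of the ESC markers was -1.07, -0.886 and -0.27 in the same order. Pou5f1, the defining ESC factor, was at 301 CPM and above in Parental cells and 283 and above in RING1B I53S cells. All 6 primitive endoderm markers were called higher in Parental and RING1B I53S cells, with a summed level of 3.09 to 3.50 CPM going to 48.7 to 50.4 in Parental cells and 4.60 to 4.71 going to 38.4 to 39.1 in RING1B I53S cells. Gata6 and Sox7 were at 0 in Parental vehicle cells. Of 6 trophoblast markers 4 and 3 were higher (summed 159 to 186 and then 372 to 377 CPM in Parental cells), and of 6 fibroblast markers 2 and 1 (23.5 to 24.0 and then 66.2 to 68.8 CPM), with Col3a1 at 0 in Parental cells throughout. In RING1B WT cells the sums also rose. Primitive endoderm markers summed to 3.73 to 4.60 and then 8.96 to 12.8 CPM, with 0 called higher. Trophoblast markers summed to 154 to 160 and then 203 to 226 CPM, with 1 called, and fibroblast markers to 16.2 to 21.9 and then 33.0 to 34.3, with 0. Genes silent in vehicle may have passed the filter only through their OHT libraries. The counts stand beside 15.1%, 12.8% and 1.34% of all genes tested called higher in Parental, RING1B I53S and RING1B WT cells. So few members leave the fibroblast counts no clear distance from those shares. JARID2 was at the promoters of 5 of the 6 primitive endoderm and 4 of the 6 trophoblast markers in all 6 libraries with active RING1B, so the 2 lists overlap with what JARID2 marks. Their part in the losses of JARID2 was not tested.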

How the data were processed

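Per the labels and the study's methods, the authors aligned ChIP-seq reads with Bowtie 1.2.2 to mm10 without multi-mapping reads, dropped duplicates using samblaster and ran MACS2 2.1.1 on every library separately against an input. The peak score they deposited is the -log10 of the MACS2 p-value. RNA reads were aligned by the authors with STAR 2.7 and counted without strand with featureCounts on GENCODE M21, and the deposited counts are raw. The authors' tables of fold changes and adjusted p-values between conditions, and a table of normalized counts, were not used.

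Peaks were intersected in Python 3.11.15 (numpy 2.4.6, pandas 2.3.3), with a minimum overlap of 1 bp and 95% Wilson intervals, and compared over libraries with exact two-sided permutation tests (scipy 1.17.1). Counts were fitted in edgeR 4.0.16 (R 4.3.3) in a quasi-likelihood model of 12 libraries, with TMM scaling and filterByExpr, which left 18154 of 55341 genes. The common biological coefficient of variation was 0.181, which with 2 libraries a group limits the precision. On simulated counts for these 18154 genes the fit recovered 87% and 98% of genes changed by log2 2 and 3, with 6 false calls. Sequences were read from GRCm38.p6 with pysam 0.24.0, and figures were drawn with matplotlib 3.10.9.

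Named genes come from the lists of PRC1 and PRC2 subunits, Polycomb targets, Hox clusters and controls, and from the 5 highest-ranked loci by vehicle score, by presence in all 11 libraries, by loss without active RING1B, and by score off target loci in RING1B I53S cells, each named by the nearest start site. The values of 1 gene of the PRC1 list are not reported here. Marker genes, and rankings of loci restricted to target loci, were named after their values were seen. Members, lists and rules were chosen with earlier results of these data known. Alternatives were stricter scores, other target sets and overlaps, lists of equal length, DESeq2 1.42.0, RLE scaling, no filter, a replicate block and each repeated library left out. Omitting the Parental vehicle library, both RING1B I53S libraries at 72 h or both 72 h libraries titled OHT, and restricting genes to 1 CPM were added after seeing the data.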

Additional observations from a re-analysis of the deposited data

Results flagged for a closer look

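Of 17 groups of libraries tested for a value far from the others, where chance gives about 1 in 20, 4 held one. The Parental vehicle library had 14778 JARID2 peaks, against 5728 to 7446 in the other 5 libraries with active RING1B, and 32.0 Mb covered, against 12.4 to 17.2 Mb. Its MTF2 list was also the longest, with 24485 peaks against 8335 to 13559. The 8982 Parental vehicle JARID2 peaks outside the shared vehicle loci had a median score of 16.2, and 1.57% of them lay on target loci. Without this library the difference in occupied target loci was 56.5 percentage points.

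MTF2 in replicate 1 of RING1B I53S at 72 h occupied 51.6% of target loci, against 76.8% to 86.8% in the other 4 libraries without active RING1B. The gap between JARID2 and MTF2 differed between libraries with and without active RING1B by 43.4 percentage points (exact two-sided permutation test, p = 0.00433), and by 47.8 without that library.

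The locus with the highest score in every JARID2 list was chr17:39842998-39848826, where the annotation places Gm26917 and RefSeq an 18S ribosomal RNA-like pseudogene. Its lowest JARID2 score over the 11 lists was 7987 and its highest 128163, with no peak there in the 4 input lists. MTF2 scored 331 to 2909 there, SUZ12 had a peak in 7 of 8 lists, up to 1901, PCGF2 in 4 of 4 and RYBP in 3 of 3. H3K27me3 and AEBP2 had no peak in any list, RING1B had one in 2 of 4, and scored 63.3 in RING1B WT cells with OHT, so the locus counts as a target locus.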

How the results depend on the processing

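With equal list lengths, which hold every share low, the difference in occupied target loci was 6.31 percentage points. It kept its direction and its side of the threshold there and under every other alternative tried, at 47.9 to 69.8 percentage points in those others. The gap between JARID2 and MTF2 did so at 37.9 to 47.8 under the alternatives tried for it, which did not include equal list lengths. With 1 repeated library left out they were 51.8 to 57.3 and 37.9 to 47.8. For shared vehicle loci the difference stayed at 62.0 to 66.5 percentage points with 1 library left out, where the exact permutation p (0.0571 or 0.0952) was the smallest possible. It was 63.2 with repeated libraries averaged (exact permutation p = 0.133) and 59.0 without both RING1B I53S libraries at 72 h (exact permutation p = 0.1), and 65.2 without both libraries titled OHT (exact permutation p = 0.133). Those designs cannot reach 0.05. Per-library shares moved beyond their intervals in 67 of 87 recalculations.

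Genes called numbered 3081 in Parental, 2511 in RING1B I53S and 251 in RING1B WT cells. Without the low-count filter RING1B WT cells gave 483. With 1 library left out the counts were 2452 to 2801, 1697 to 2464 and 25 to 261, the remaining library of a group being assumed to vary like the others. DESeq2 gave 2843, 2267 and 293. With a replicate block they were 3176, 2606 and 291. Same-numbered RNA libraries had correlated deviations over 0.1 in 9 of 15 pairs of groups, with a highest correlation of 0.301. The numbers may therefore mark a shared batch. The main fit left them out, and the counts with a replicate block are those above. The peak tests have no replicate block, since vehicle and 48 h were profiled once per line. Depth is unknown for peak lists, so weak binding below the calling limit was not detectable.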

Other observations

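Of the 314 loci with a JARID2 peak in all 11 libraries, 7 lay off the target loci. Among them, Gm25352 (chr3:5860340-5860824, 20217 bp from that start) scored 7361, 6645 and 3475 in vehicle, 861 to 3258 in RING1B WT cells with OHT, and 2109, 1975, 2809, 244 and 1723 in the libraries without active RING1B, so that 4 of these 5 lay above the lowest RING1B WT value. MTF2 was called there in the Parental vehicle list alone. Gm11668 (chr11:109011644-109012801) scored 5759 in Parental vehicle cells and 291 to 2194 without active RING1B. Gm2651 (chr6:3200766-3201643) scored 4162 and 133 to 1535, and 60.5% of its 31-base words occur in the chr17 locus with the highest scores. An intron of Filip1l and Cmss1 (chr16:57390608-57392177) scored 3094 and at most 1008. H3K27me3 had a peak at 1 of these 4 loci, Gm11668, with a score of 14.8 in Parental vehicle cells. Gm10800 (chr2:98666752-98667159) scored 557, 308 and 444 in the 3 RING1B I53S libraries with OHT, 425 in the Parental library at 48 h and 103 in replicate 1 of RING1B WT at 72 h, held no peak in any vehicle list, and overlaps an input peak.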
